A study of Mus musculus with 6 samples.

Results

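The constitutive proteasome was represented by 35 genes, taken from the 33157 rows of the count table by symbol: Psma, Psmb, Psmc or Psmd followed by digits. The inducible catalytic genes Psmb8, Psmb9 and Psmb10 and the thymic Psmb11 were left out. The cells were group 3 innate lymphoid cells (ILC3s), gut lymphocytes that make interleukin-22, which had been sorted from wild-type mouse small intestine as CD45+, lineage-negative, CD90.2+, CD127+ and KLRG1- cells. One group was cultured for 4 h with recombinant mouse interferon-γ (IFN-γ) at 20 ng/mL plus insulin-like growth factor 1 (IGF-1) at 200 ng/mL, and the control group with the same dose of IFN-γ and no IGF-1. Each group held 3 libraries, called IGF-1 and control replicates 1 to 3 here, and no culture lacked IFN-γ. The sources used here do not give the age or sex of the mice, or whether a group's libraries are separate animals or cultures. The p-values measure only how these libraries scatter, and that scatter may be technical.

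The proteasome is the protease that degrades proteins tagged with ubiquitin. Its barrel-shaped core has outer rings of alpha subunits (Psma genes), which gate the entrance, and inner rings of beta subunits (Psmb genes), which include the protease sites of Psmb5, Psmb6 and Psmb7. A regulatory particle caps the core: its ATPases (Psmc genes) unfold substrates, and its non-ATPase subunits (Psmd genes) bind and remove ubiquitin. In cells exposed to IFN-γ the catalytic subunits are partly replaced by Psmb8, Psmb9 and Psmb10, forming the immunoproteasome, which favours peptides for MHC class I. In mammalian cells the transcription factor NRF1 (Nfe2l1) is known to raise proteasome genes when proteasome activity is low, and growth factor signalling through mTORC1 has been linked to proteasome levels.

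Total counts were between 32573713 and 39206449 per library. Of the 35 genes, 34 passed the filter on low counts, with 1511 to 35275 counts per gene and library. The gene that did not pass was Psma8, a testis form of an alpha subunit. It had 0, 1 and 75 counts in IGF-1 replicates 1, 2 and 3, against 2, 19 and 8 in the control replicates. Sorted ILC3s should carry Il7r, Kit and Thy1, and these averaged 417, 657 and 526 CPM (read counts scaled to library totals, TMM-normalised) with IGF-1, against 458, 689.6 and 590.3 CPM in controls. They were 3 of 12 listed ILC3 markers, which together summed to 5500 to 6028 CPM with IGF-1 and 4968 to 5383 CPM in controls. Of the 12, 6 stood higher with IGF-1, where 48.7% of all genes tested did. The 5 T cell markers summed to 35.9 to 47.0 CPM with IGF-1 and 42.6 to 50.6 CPM in controls, with Cd3e at or under 1.21 CPM. The 5 myeloid markers summed to 14.9 to 16.7 CPM with IGF-1 and 10.8 to 16.6 CPM in controls, with Lyz2 at or under 0.51 CPM. The 5 fibroblast and endothelial markers summed to 78.6 to 90.2 CPM with IGF-1 and 88.0 to 114 CPM in controls, and the 4 ILC2 markers to 12.5 to 56.2 CPM with IGF-1 and 25.7 to 27.4 CPM in controls. The 3 mast cell markers summed to at most 0.20 CPM with IGF-1 and 1.02 CPM in controls, with Mcpt1 at 0. The 5 B and plasma cell markers summed to 27.96 to 35.7 CPM with IGF-1 and 17.7 to 555 CPM in controls. The plasma cell gene Jchain was at 519 CPM in control replicate 3 and at or under 0.21 CPM in the other libraries, while Ms4a1 of B cells was at 0 in all. The 5 listed natural killer and ILC1 markers summed to 101 to 123 CPM with IGF-1 and 64.2 to 74.8 CPM in controls, with Eomes at 0 throughout. Ncr1, from that list, had a mean of 71.5 CPM with IGF-1 and 28.2 CPM in controls. Whether its reads came from ILC3s or from other cells cannot be told from these libraries. The 6 epithelial markers summed to 16.3 to 23.5 CPM with IGF-1 and 33.3 to 46.2 CPM in controls. Whether cells other than ILC3s had a part in the results on subunits was not tested. In such bulk libraries fewer cells of a type and less RNA per cell cannot be told apart.

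With IGF-1, most constitutive subunits stood slightly higher, but none rose by the test over all genes. Of the 34 subunits tested, 30 had a log2 fold change above 0 (IGF-1 over control), where 48.7% of all 13483 genes tested did. Their median log2 fold change was 0.16, or 11.5% higher, against -0.01 over all genes tested. By edgeR's quasi-likelihood test with Benjamini-Hochberg adjustment over all genes, 0 subunits passed an adjusted p of 0.05 in either direction, where 0.23% of all genes were called higher and 0.267% lower. At an unadjusted p under 0.05, 5 subunits were higher, where 5.58% of all genes were, and 0 were lower, where 6.24% of all genes were. The 5 were Psmd14, Psmb2, Psmd10, Psma1 and Psma2. In 6 subunits (Psma1, Psmb2, Psmc2, Psmc6, Psmd10 and Psmd14) every IGF-1 library lay above every control library, as in 8.81% of all genes. DESeq2 called Psmd14 (adjusted p = 0.0316) and Psmb2 (adjusted p = 0.0445) higher, where it called 1.58% of the 11907 genes with an adjusted p. Over all settings tried the adjusted p ranged from 0.0316 to 0.531 for Psmd14 and from 0.0445 to 0.613 for Psmb2. The voom method of limma called 0 subunits.

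The size of this difference depended on IGF-1 replicate 2, which was the highest of the 6 libraries for 21 of the 34 subunits. Without it the median log2 fold change was 0.08, 26 subunits were above 0 and 2 had an unadjusted p under 0.05. That last count was also 2 when IGF-1 replicate 1 was left out. Leaving out IGF-1 replicate 3 gave 10, and leaving out control replicate 1, 2 or 3 gave 9, 3 or 2. When control replicate 3, the library with the high Jchain level, was left out, 29 subunits were above 0 and the median was 0.14.

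**Figure D1:**
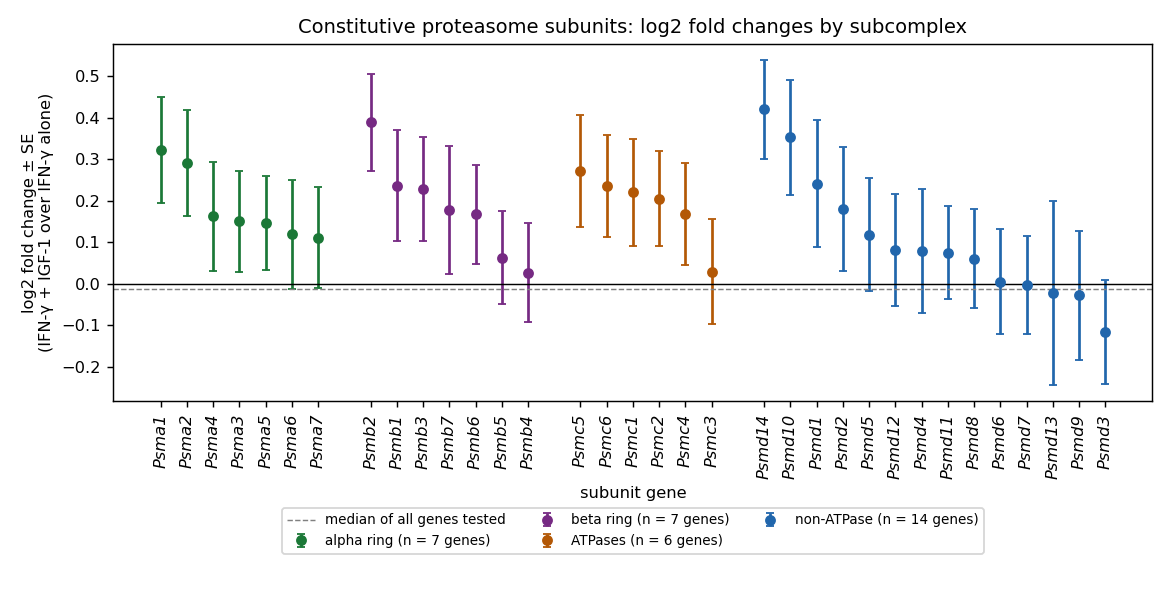
Log2 fold change (IGF-1 over control, points) with its SE (bars) for each of the 34 subunits tested, ordered within the alpha ring, beta ring, ATPases and non-ATPase subunits. The alpha, beta and ATPase genes all lie above 0, while the 4 negative values are non-ATPase genes, with Psmd3 lowest at -0.12.

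The summed level of all 35 genes was 10789, 12052 and 10199 CPM in IGF-1 replicates 1, 2 and 3, against 10129.8, 9576 and 9442 CPM in control replicates 1, 2 and 3. The groups did not overlap, but IGF-1 replicate 3 and control replicate 1 lay close together. The mean was 11013 ± 947 CPM with IGF-1 and 9716 ± 365 CPM in controls (SD, n = 3 each), a difference of 13.4%. Without IGF-1 replicate 2 the difference was 8.01%. Scaled to plain library size, which undoes that library's TMM factor of 0.954, the sums were 10687, 11488 and 10432 CPM with IGF-1 and 9907, 9833 and 9687 CPM in controls.

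Promoters from RefSeq (GRCm38.p6) were used for 28 of the 35 genes, and the 250 bases before the start site were searched on both strands. Psma8, which did not pass the filter on low counts, was left out of this search. The antioxidant response element TGACNNNGC, the kind of site that NRF1 and NRF2 bind, was found upstream of 5 genes: Psmb5, Psmb6, Psmc6, Psmd9 and Psmd12. That was 16.7% of 30 member promoters, against 10.2% of all 32851 promoters. The log2 fold changes of these 5 genes were, in the same order, 0.06, 0.17, 0.24, -0.03 and 0.08. The box CCAAT, bound by NF-Y, was found upstream of 11 genes, in 36.7% of member promoters against 33.8% of all. No promoter of the set held overlapping copies of both. The box was present upstream of all 4 genes with an unadjusted p under 0.05 that had a promoter (Psmd14, Psmd10, Psma1 and Psma2) and of 7 of the other 24, a description of genes picked by their p-values and without a test. None of the 4 held the element. Their upstream sequences are shown because these subunits had the smallest p-values among those with a promoter held, and that of Psmb5 because it holds the element and its gene was near 0. Capitals mark a match to either motif on either strand (CCAAT reads ATTGG on the other strand).
Psmd14, chr2:61711444-61711693, plus strand: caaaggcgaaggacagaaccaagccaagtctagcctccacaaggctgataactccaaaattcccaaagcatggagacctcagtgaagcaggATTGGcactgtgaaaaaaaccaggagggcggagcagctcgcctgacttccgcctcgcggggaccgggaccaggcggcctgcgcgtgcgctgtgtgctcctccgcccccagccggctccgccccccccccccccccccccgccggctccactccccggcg
Psmd10, chrX:140956712-140956961, minus strand: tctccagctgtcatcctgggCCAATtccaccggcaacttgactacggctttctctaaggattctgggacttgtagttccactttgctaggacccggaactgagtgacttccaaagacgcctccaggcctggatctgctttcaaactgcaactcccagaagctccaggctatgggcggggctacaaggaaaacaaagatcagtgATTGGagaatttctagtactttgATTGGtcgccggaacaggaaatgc
Psma1, chr7:114276117-114276366, minus strand: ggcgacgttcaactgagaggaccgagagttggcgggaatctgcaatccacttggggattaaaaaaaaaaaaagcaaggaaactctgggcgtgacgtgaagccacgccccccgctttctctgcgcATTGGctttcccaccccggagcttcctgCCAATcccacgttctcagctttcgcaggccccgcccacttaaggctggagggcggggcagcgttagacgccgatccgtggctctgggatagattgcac
Psma2, chr13:14612992-14613241, plus strand: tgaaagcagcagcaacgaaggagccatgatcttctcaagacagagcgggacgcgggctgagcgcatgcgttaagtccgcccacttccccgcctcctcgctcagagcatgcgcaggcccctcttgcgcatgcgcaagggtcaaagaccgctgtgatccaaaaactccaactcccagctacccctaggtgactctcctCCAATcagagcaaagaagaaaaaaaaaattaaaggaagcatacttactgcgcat
Psmb5, chr14:54617996-54618245, minus strand: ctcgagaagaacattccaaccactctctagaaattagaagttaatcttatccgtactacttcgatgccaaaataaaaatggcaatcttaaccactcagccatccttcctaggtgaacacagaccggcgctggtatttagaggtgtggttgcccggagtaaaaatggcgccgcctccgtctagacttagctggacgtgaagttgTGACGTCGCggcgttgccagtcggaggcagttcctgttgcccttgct
Psmd10, an assembly chaperone gene, carried 3 boxes, Psma1 carried 2, and Psmd14 and Psma2 carried 1 each. Motif content in these windows was a match of letters and says nothing about binding in ILC3s.

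All 7 alpha genes tested had positive log2 fold changes, from 0.11 to 0.32, with a median of 0.15. Psma1 had 517, 597 and 452 CPM in IGF-1 replicates 1 to 3, against 417, 440.4 and 394 CPM in control replicates 1 to 3 (log2 fold change 0.32, SE 0.13, adjusted p = 0.351). Every IGF-1 library lay above the controls for this alpha subunit. Psma2 was at 908, 998 and 745 CPM with IGF-1 and at 733, 753 and 679.8 CPM in controls (0.29, SE 0.13, adjusted p = 0.405). IGF-1 replicates 1 and 2 were high, and replicate 3 fell among the controls. Psma5 was at 315, 364 and 328 CPM with IGF-1 and at 294, 316 and 299 CPM in controls (0.15, SE 0.11, adjusted p = 0.676), with overlapping groups. The other members of the ring were Psma4 (log2 fold change 0.16), Psma3 (0.15), Psma6 (0.12) and Psma7 (0.11). For Psma3, Psma4, Psma6 and Psma7, IGF-1 replicate 2 was the highest library and the groups overlapped.

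The 7 beta genes were also all positive, from 0.03 to 0.39, with a median of 0.18. Psmb2, a structural beta subunit without protease activity, had 675, 728 and 592 CPM in the IGF-1 libraries, against 506, 533 and 484 CPM in controls (0.39, SE 0.12, adjusted p = 0.204). Its lowest IGF-1 library stood above its highest control. The structural subunit Psmb1 was at 588, 665 and 481 CPM with IGF-1 and at 481, 507 and 484 CPM in controls (0.24, SE 0.13, adjusted p = 0.539). Psmb3, another structural subunit, was at 569, 547 and 458 CPM with IGF-1 and at 490.4, 431 and 421 CPM in controls (0.23, SE 0.13, adjusted p = 0.527). In both, IGF-1 replicate 3 fell within the control range or below it.

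The protease subunits of the beta ring had log2 fold changes of 0.06 to 0.18. Psmb5, which carries the chymotrypsin-like site, had 239.6, 267 and 234 CPM with IGF-1, against 236, 236 and 237 CPM in controls (0.06, SE 0.11, adjusted p = 0.886). This is the gene shown with the antioxidant response element. The control libraries were nearly equal, and IGF-1 replicate 3 lay just under them. Psmb6, with the caspase-like site, was at 829, 933 and 733 CPM with IGF-1 and 771, 707 and 744 CPM in controls (0.17, SE 0.12, adjusted p = 0.648). Psmb7, with the trypsin-like site, was at 63.7, 71.2 and 51.9 CPM with IGF-1 and 61.7, 51.5 and 52.0 CPM in controls (0.18, SE 0.15, adjusted p = 0.726). The structural Psmb4 had the smallest value of the ring (0.03).

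Among the 6 ATPases, which form the ring that unfolds substrates and threads them into the core, the median log2 fold change was 0.21, with a range of 0.03 to 0.27. Psmc5 had 292, 342 and 303 CPM with IGF-1, against 299, 227 and 250.1 CPM in controls (0.27, SE 0.14, adjusted p = 0.474). Control replicate 1 lay among the IGF-1 libraries. Psmc6 was at 222, 223 and 193.0 CPM with IGF-1 and at 193.0, 186 and 163 CPM in controls (0.24, SE 0.12, adjusted p = 0.496), so that the groups nearly touched. Psmc2 was at 256, 274 and 262 CPM with IGF-1 and at 249, 215 and 224 CPM in controls (0.21, SE 0.11, adjusted p = 0.535), without overlap. The other ATPases were Psmc1 (0.22), Psmc4 (0.17) and Psmc3 (0.03).

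The 14 non-ATPase genes were the most mixed, with 10 positive and 4 negative values and a median of 0.08. Psmd14, the deubiquitinase of the lid that cuts ubiquitin chains from substrates, had 246, 252 and 222 CPM with IGF-1, against 166, 192 and 179 CPM in controls. Its promoter is the first of those shown. Its log2 fold change of 0.42 (SE 0.12, unadjusted p = 0.00498, adjusted p = 0.181) was the largest of all subunits, and its groups did not overlap. Psmd7, which pairs with Psmd14 in the lid, was at 217, 249 and 240.4 CPM with IGF-1 and 255, 229 and 224 CPM in controls (-0.00, SE 0.12). Psmd3, a lid scaffold subunit, had the lowest value: 85.0, 99.7 and 94.2 CPM with IGF-1 and 107, 91.5 and 104 CPM in controls (-0.12, SE 0.13, adjusted p = 0.790), with overlapping groups. Psmd1, the scaffold of the base, was at 168, 197 and 201 CPM with IGF-1 and at 192, 154 and 133 CPM in controls (0.24, SE 0.15, adjusted p = 0.596).

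The remaining lid subunits were Psmd12 (0.08), Psmd11 (0.08), Psmd8 (0.06), Psmd6 (0.01) and Psmd13 (-0.02). Psmd13 was the least even between libraries, with an SE of 0.22 and control values from 79.1 to 152 CPM. Of the base subunits that receive ubiquitin chains or shuttle factors, Psmd2 was at 0.18 and Psmd4 at 0.08. Psmd5, Psmd9 and Psmd10 match the symbol rule but encode chaperones that help assemble the ATPase ring and leave the finished complex. Psmd10 (gankyrin) had 141, 159 and 115 CPM with IGF-1, against 109, 108 and 108 CPM in controls (0.35, SE 0.14, unadjusted p = 0.0276, adjusted p = 0.337), and its groups did not overlap. Psmd5 was at 0.12 and Psmd9 at -0.03.

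**Figure D2:**
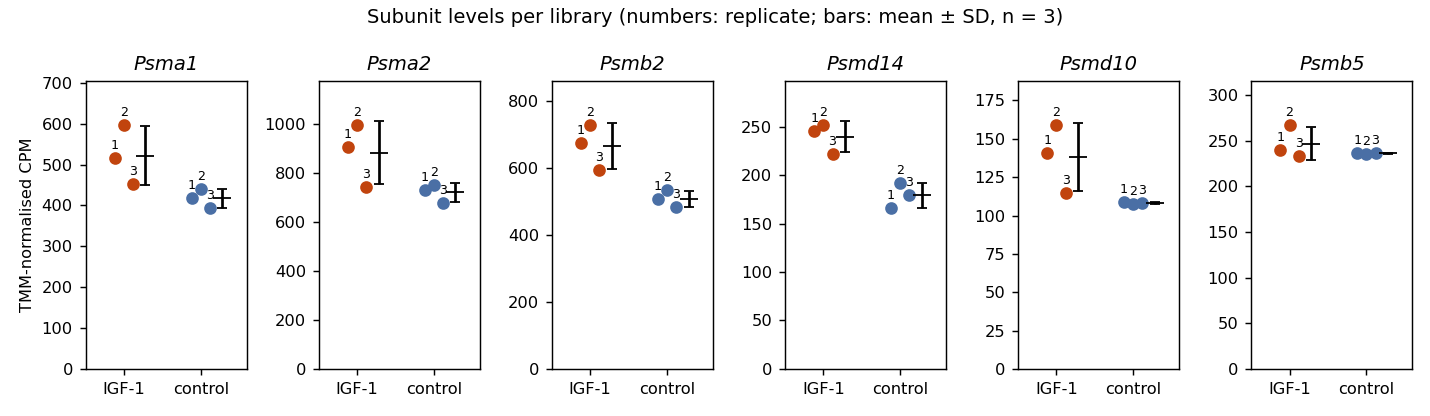
TMM-normalised CPM of the 5 subunits with an unadjusted p under 0.05 and of the protease subunit Psmb5 in each library (points, numbered by replicate), with mean ± SD (n = 3), IGF-1 left of control. IGF-1 replicate 2 is the highest library in all 6 genes, and only Psma2 and Psmb5 have overlapping groups.

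The subcomplexes did not follow the libraries in the same way. Each library was set against the mean of all 6, as the median deviation in log2 CPM over the genes of a subcomplex. In IGF-1 replicate 2 all 4 subcomplexes were high, with medians of 0.26 for alpha, 0.25 for beta, 0.18 for ATPase and 0.13 for non-ATPase genes. In IGF-1 replicate 1 the alpha and beta genes were high (0.10 and 0.13) and the non-ATPase genes low (-0.12). In IGF-1 replicate 3 the alpha and beta genes were low (-0.09 and -0.07), while ATPase and non-ATPase genes were high (0.09 and 0.08). Control replicate 1 was like IGF-1 replicate 3, with -0.08 for alpha, -0.03 for beta, 0.05 for ATPase and 0.08 for non-ATPase genes. All subcomplexes were low in control replicates 2 and 3. The median over all genes tested stayed between -0.01 and 0.01 in every library.

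Core and regulatory genes thus had different libraries at the edge between the groups. The core sum of alpha and beta genes was 6916, 7700.3 and 6061 CPM in IGF-1 replicates 1 to 3, against 6065, 6085 and 5806 CPM in controls, where IGF-1 replicate 3 fell within the control range. For the regulatory sum of ATPase and non-ATPase genes the values were 3873, 4352 and 4138 CPM with IGF-1 and 4065, 3490.4 and 3636 CPM in controls, where control replicate 1 lay above IGF-1 replicate 1. The mean core sum was 15.2% higher with IGF-1 and the mean regulatory sum 10.5% higher. Their ratio was 1.67 ± 0.18 with IGF-1 and 1.61 ± 0.13 in controls (SD, n = 3 each), a difference within the spread between libraries.

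**Figure D3:**
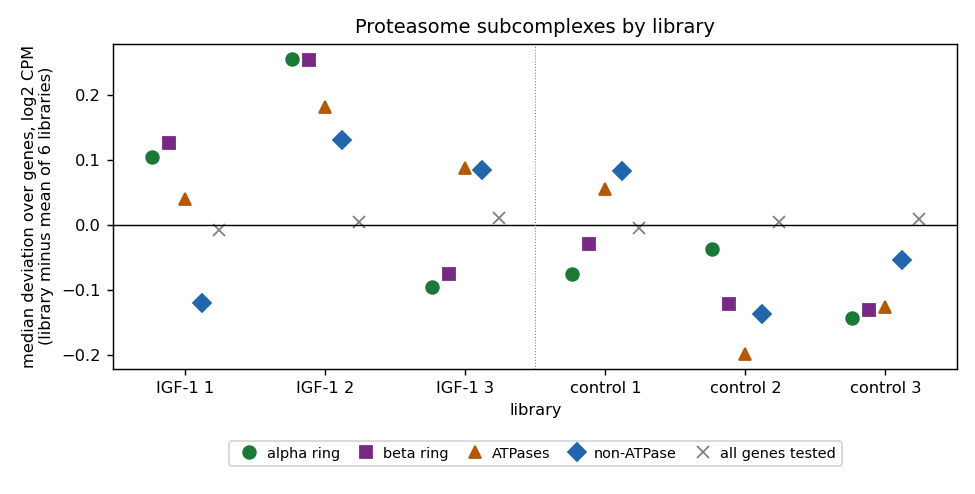
Median deviation of each subcomplex from its mean over the 6 libraries, in log2 CPM (points, one shape per subcomplex, crosses for all genes tested), with the IGF-1 libraries left of the controls. IGF-1 replicate 2 is above 0 for every subcomplex, and alpha and beta genes part from ATPase and non-ATPase genes in IGF-1 replicate 3 and control replicate 1.

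The spread within groups was also uneven. The median SD of log2 CPM among the IGF-1 libraries was 0.19 for alpha and 0.17 for beta genes, against 0.08 and 0.07 among the control libraries. It was larger with IGF-1 for 7 of 7 alpha and 6 of 7 beta genes. For the ATPases it was 0.11 with IGF-1 and 0.15 in controls, larger with IGF-1 for 0 of 6. The non-ATPase genes were mixed, with 0.15 with IGF-1 and 0.12 in controls, larger with IGF-1 for 5 of 14. Over all genes tested the median SD was 0.21 with IGF-1 and 0.23 in controls. This difference in spread was not tested.

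Levels were compared between subunits as CPM per kb of the principal transcript, with transcript lengths from GENCODE M21. Core genes stood above regulatory genes: the median level was 304 CPM per kb for alpha and 329 for beta genes with IGF-1, against 248 and 279 in controls, while ATPases had 168 and 149.6 and non-ATPase genes 86.4 and 73.1. Psmb6 was the most abundant (1042 CPM per kb with IGF-1, 928 in controls), followed by Psma7 (953 and 882), Psmb2 (774 and 591) and Psmb3 (685 and 584). The lowest were Psmd9 (20.0 with IGF-1, 20.4 in controls) and Psmd5 (28.2 and 26.0), which encode assembly chaperones. Psmb7 was far below the rest of its ring, at 53.7 CPM per kb with IGF-1 and 47.5 in controls. Reads that match a processed copy elsewhere may have been lost or moved, and the sources used here do not say how the counting treated them. The table has 5 rows named as pseudogenes of these genes, including Psmb7-ps2, and none averaged over 21.6 CPM. Levels between subunits are therefore uncertain.

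The exchange of catalytic subunits was examined as the log2 ratio, in CPM, of each inducible gene to the constitutive gene whose place it takes. These ratios were not corrected for length, so only their difference between the groups is read. For Psmb9 over Psmb6 the log2 ratio was -1.36, -1.18 and -1.16 in IGF-1 replicates 1 to 3, against -0.73, -0.73 and -0.89 in control replicates 1 to 3. The ratio was lower in every IGF-1 library, by 0.45 on average. For Psmb10 over Psmb7 it was 3.45, 3.48 and 3.50 with IGF-1 and 3.67, 3.78 and 3.74 in controls, again lower in every IGF-1 library, with a difference of -0.25. For Psmb8 over Psmb5 the values were 2.53, 2.70 and 2.58 with IGF-1 and 2.73, 2.53 and 2.51 in controls, with overlapping groups and a difference of 0.02. A two-sided exact permutation test gave p = 0.1 for Psmb9 over Psmb6 and for Psmb10 over Psmb7, the smallest p that 3 libraries against 3 allow, and p = 0.8 for Psmb8 over Psmb5. Adjusted over the 3 pairs these were 0.15, 0.15 and 0.8, so no pair could pass a threshold of 0.05 in this design.

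None of the inducible genes passed the test on its own. Psmb9 was at 323, 412 and 327 CPM with IGF-1, against 464, 425 and 400.3 CPM in controls (log2 fold change -0.28, SE 0.13, adjusted p = 0.441), with IGF-1 replicate 2 inside the control range. Psmb10 was at 695, 797 and 587 CPM with IGF-1 and 784, 706 and 694 CPM in controls (-0.07, SE 0.13, adjusted p = 0.893). Psmb8 was at 1383, 1734 and 1396 CPM with IGF-1 and 1564, 1359.8 and 1344 CPM in controls (0.08, SE 0.12, adjusted p = 0.862). For all 3 inducible genes, too, IGF-1 replicate 2 was the highest IGF-1 library.

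**Figure D4:**
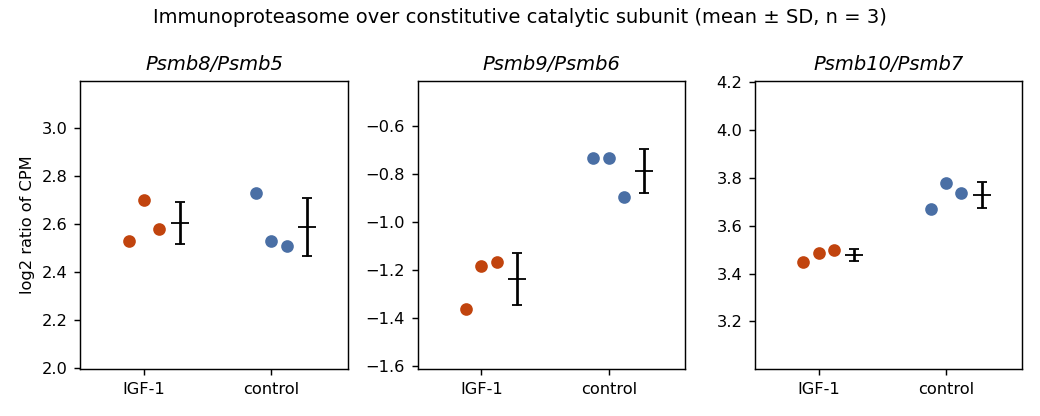
Log2 ratio of CPM of the inducible to the constitutive catalytic subunit in each library (points) with mean ± SD (n = 3), IGF-1 left of control, each panel spanning the same height. The ratios with Psmb9 and Psmb10 are lower in all 3 IGF-1 libraries, by 0.45 and 0.25 on the log2 scale, and those with Psmb8 overlap.

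Other genes of the pathway were taken from lists of proteasome partners. By edgeR 0 of their 41 tested members passed over all genes. The core chaperones were positive in 4 of 5 (median 0.20). Psmg1, which starts the alpha ring, had 43.1, 46.3 and 36.5 CPM with IGF-1, against 31.2, 31.4 and 30.1 CPM in controls (0.44, SE 0.15, unadjusted p = 0.0137, adjusted p = 0.264), without overlap. Pomp, which brings beta subunits onto the alpha ring, was at 862, 938 and 740.3 CPM with IGF-1 and 713, 797 and 703 CPM in controls (0.20, SE 0.12, adjusted p = 0.578). The activator caps and the inhibitor Psmf1 were positive in 6 of 6 with a median of 0.09. In that list Psme4 (136 ± 10.8 CPM with IGF-1, 119.8 ± 12.9 CPM in controls, 0.19, SE 0.13) and the IFN-γ-induced cap subunit Psme2 (0.11, SE 0.12) had the smallest p. Adrm1 and Sem1, regulatory subunits named outside the symbol rule, were at 0.02 and 0.08.

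Of 12 ubiquitin-handling partners 7 were positive and 5 negative (median 0.10). Usp14, the deubiquitinase that docks on Psmd2, was at 97.3, 119.9 and 127 CPM with IGF-1 and 92.1, 75.2 and 98.8 CPM in controls (0.37, SE 0.15, unadjusted p = 0.0324, adjusted p = 0.360), and its groups overlapped. Ubqln4, a shuttle that carries ubiquitinated proteins to the proteasome, was at 49.0 ± 1.34 CPM with IGF-1 and 58.5 ± 9.65 CPM in controls (-0.26, SE 0.15, adjusted p = 0.559). In the NRF1 list 6 of 9 were positive, with a median of 0.03. Nfe2l1 itself was at 52.2, 54.0 and 52.9 CPM with IGF-1 and 52.5, 43.1 and 48.0 CPM in controls (0.15, SE 0.13, adjusted p = 0.741). Ufd1, a cofactor of the p97 ATPase that extracts ubiquitinated proteins, was at 167, 178 and 159.8 CPM with IGF-1 and 147, 114 and 132 CPM in controls (0.36, SE 0.13, unadjusted p = 0.0190, adjusted p = 0.301). Nfe2l2, the related stress factor NRF2, was at 91.6, 105 and 90.4 CPM with IGF-1 and 119.7, 122 and 114 CPM in controls (-0.31, SE 0.12, unadjusted p = 0.0274, adjusted p = 0.336). The groups did not overlap for Ufd1 or Nfe2l2.

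Among the genes that encode ubiquitin, Ubb (log2 fold change -0.03, SE 0.11) and Rps27a (0.02, SE 0.16) lay near 0. The 4 enzymes that activate and carry ubiquitin were all positive (median 0.20). Ube2n, which builds signalling chains of ubiquitin, was at 237, 296 and 249 CPM with IGF-1 and 228, 131 and 161 CPM in controls (0.59, SE 0.19, unadjusted p = 0.0111, adjusted p = 0.243), without overlap. Ube2l3 was at 225 ± 29.9 CPM with IGF-1 and 192 ± 11.4 CPM in controls (0.23, SE 0.13, adjusted p = 0.548). Across these pathway lists DESeq2 called 1 gene, Ube2n (adjusted p = 0.0398), and limma-voom 0. When low genes were kept, edgeR called Ube2n as well (adjusted p = 0.00563), and its adjusted p ranged up to 0.631 over the settings tried. At an unadjusted p under 0.05, edgeR had 4 of the 41 pathway genes higher and 1 lower, where 5.58% of all genes were higher and 6.24% lower.

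Other protein complexes were set beside the proteasome. The chaperonin TRiC, which folds actin and tubulin, had 8 of 8 subunits positive with a median of 0.19, and 2 of them, Tcp1 (0.32, SE 0.11) and Cct8 (0.30, SE 0.11), were higher at an unadjusted p under 0.05. Of 84 tested ribosomal protein genes, matched by symbol, 33 were positive and the median was -0.04, with 1 higher and 0 lower at an unadjusted p under 0.05. Over all genes tested 48.7% were positive, and 5.58% were higher and 6.24% lower at that p. In either complex 0 genes passed over all genes by edgeR, DESeq2 or limma-voom. The difference between complexes was not tested.

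**Figure D5:**
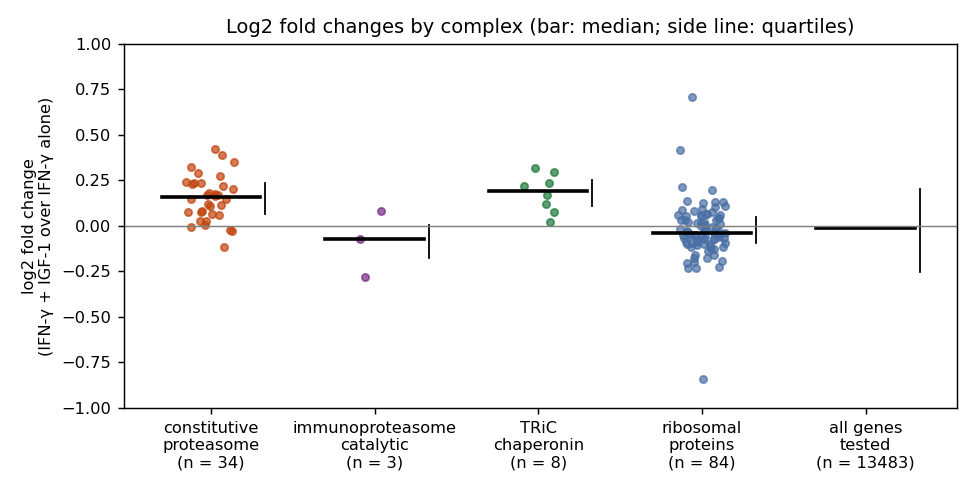
Log2 fold changes (IGF-1 over control) of single genes in 4 protein complexes (points), with the median (thick bar) and quartiles (side line) of each and of all 13483 genes tested. The medians are 0.16 for the constitutive proteasome, -0.07 for the 3 immunoproteasome genes, 0.19 for TRiC, -0.04 for ribosomal proteins and -0.01 for all genes.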

How the data were processed

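Per the labels' protocols, the SMART-Seq HT kit was used for all 6 libraries of sorted ILC3s, which were grouped by title. The authors deposited 1 table of raw counts by gene symbol, and the submitters' processing notes name fastp 0.23.2, HISAT2 2.2.1, SAMtools 1.15.1, featureCounts 1.5.3 and the build GRCm39, with no role for each. The sources used here name neither the gene annotation nor the rules for strand and for reads with several matches.

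Low genes were dropped by filterByExpr in edgeR 4.0.16 under R 4.3.3 (at least 10 counts, 15 in total). That kept 13483 genes and lost 0.0806% of counts. Groups were compared by TMM scaling, glmQLFit and glmQLFTest with no covariate, and p-values were adjusted over all genes by Benjamini-Hochberg. The SE is the log2 fold change divided by the square root of F. The fit was tested on simulated data, where the changes put in were larger than that of any subunit. That test does not cover differences as small as those of the subunits. Alternatives were scaling by RLE, by upper quartiles or by library size, DESeq2 1.42.0, voom in limma 3.58.1, a replicate block, no filter, a filter of 10 CPM in 3 libraries, and each library left out. Values in every library are given for the 3 subunits of smallest p in each of 4 subcomplexes, the catalytic genes and the largest change each way, and in each pathway list the 2 genes of smallest p are named. Genes beyond these were chosen for naming with their values in view. The members, lists and tests were chosen with earlier results of these data known. Libraries of a group differed far beyond sampling noise (chi-square per degree of freedom 38.5 to 88.7), so none held a copy of another's counts. This does not tell separate animals or cultures from technical replicates. Counts are not of independent molecules. Some genes of the marker and pathway lists are not reported here.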

Additional observations from a re-analysis of the deposited data

How the results depend on the processing

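Over the 14 alternative settings 25 of the 34 subunits kept the direction of their log2 fold change, and the other 9 all lay within 0.12 of 0. The number of subunits called was 0 in each setting except DESeq2, which called 2, and the lowest adjusted p of a subunit elsewhere was 0.0996 (stricter filter) to 0.531 (without control replicate 3). The median log2 fold change ranged from 0.08 (without IGF-1 replicate 2) to 0.20 (without control replicate 1), the number of subunits above 0, a count added after seeing the data, from 26 to 33, and the number at an unadjusted p under 0.05 from 2 to 10 when a library was left out. The difference in summed level ranged from 8.01% to 17.5% when a library was left out. The cause of these changes was not tested.

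Directions turned for values near 0. With library size scaling Psmb4 was at -0.0079, Psmd6 at -0.027 and Adrm1 at -0.0051. Psmd6 was at -0.0081 with the stricter filter, Psmd7 at 0.0070 with upper quartile scaling and Psmd13 at 0.0062 with limma-voom. Leaving out a library gave ranges of -0.0066 to 0.19 for Psma6, -0.024 to 0.10 for Psmb4, -0.025 to 0.14 for Psmc3, -0.0056 to 0.26 for Psmd4, -0.067 to 0.080 for Psmd6, -0.049 to 0.056 for Psmd7, -0.0036 to 0.13 for Psmd8, -0.13 to 0.089 for Psmd9 and -0.24 to 0.20 for Psmd13. Outside the set they were -0.037 to 0.15 for Psmb8, -0.19 to 0.036 for Psmb10, -0.17 to 0.25 for Adrm1, -0.065 to 0.25 for Sem1 and -0.12 to 0.074 for Ubb. Ube2n, not called by edgeR with the filter, was called by DESeq2 and with no filter on low counts. The log2 ratio of Psmb8 to Psmb5 differed by -0.033 to 0.085 between the groups when a library was left out, and the differences with Psmb9 and Psmb10 stayed negative in each case.

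Deviations of libraries with equal replicate numbers from their group means correlated at -0.226, -0.113 and 0.212 over 8565 genes. Those of unequal numbers correlated at -0.216 to 0.269. With 3 libraries per group, these values cannot show whether libraries were paired, by number or otherwise. With the replicate block 0 subunits were called, 5 had an unadjusted p under 0.05, the median was 0.15 and Psmd13 was at 0.0098. Paired by number, the exact sign-flip p for Psmb9 and Psmb10 was 0.25, the smallest that 3 pairs allow. With at least 1511 counts per subunit and library, the spread between libraries set the SE of 0.11 to 0.22 more than depth did, and a difference the size of the median could not be told from 0 in a single subunit.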
